A study of Mus musculus with 10 samples.

Results

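Neurogranin (Nrgn) and 8 other genes of calcium signalling at the postsynapse, Pcp4, Camk2a, Camk2b, Camk2g, Camk4, Ppp3ca, Dlg4 and Homer1, were followed in cultured mouse cortical neurons under lactacystin, an inhibitor of the proteasome. All probe sets that the platform annotation gives to one of these symbols or to a synonym were taken, and this found 9 probe sets of 7 genes among the 9977 that both array designs hold, with 2 more on one design only. Of these, 6 probe sets, each of a different gene, were bright enough to be among the 6984 tested, which stand for 5541 named genes. No probe set matched Camk2g, which was not analysed here.

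Entering calcium is read in dendritic spines by calmodulin, a small protein that binds calcium and then switches on kinases and the phosphatase calcineurin. Neurogranin, abundant in the spines and dendrites of excitatory forebrain neurons, binds calmodulin when calcium is low and releases it when calcium rises, and so sets how much calmodulin is free. The enzymes act beside scaffold proteins that hold receptors and signalling proteins together under the postsynaptic membrane.

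The cells were primary cultures from the foetal neocortex of Swiss albino mice (gestation day 15 to 16), treated on culture day 5. The 4 groups were lactacystin at 1 µM for 24 h (3 arrays), its control at 24 h (2 arrays), lactacystin at 1 µM for 48 h (3 arrays) and its control at 48 h (2 arrays). The stock was dissolved in DMSO, and the labels do not say whether control wells received that solvent. Separate cultures are not stated for the replicates either, and the p-values therefore reflect spread among arrays that may be technical.

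Arrays were of 2 Affymetrix designs, U74A (4 arrays) and its revision U74Av2 (6 arrays), and each group held 1 U74A array. Values are scaled signals, and a change is the difference of log2(signal + 32), lactacystin minus control, with its standard error (SE), from a limma fit that includes array design. A probe set was called at an adjusted p under 0.05. At 24 h 1038 of the tested probe sets were called (14.9%), and at 48 h 722 (10.3%). Median signals as deposited, before scaling, ran from 159 to 235.1 over the arrays, whose small number sets the precision.

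The 2 members that passed the test, Nrgn and Camk2b, are shown here with the 300 bases around their start sites, 250 before and 50 after, as listed by RefSeq on GRCm38.p6. The windows are chr9:37552696-37552995 for Nrgn and chr11:6065699-6065998 for Camk2b, both on the minus strand and written 5′ to 3′ along the gene. Capitals mark GC boxes, GGGCGG on either strand.
Nrgn: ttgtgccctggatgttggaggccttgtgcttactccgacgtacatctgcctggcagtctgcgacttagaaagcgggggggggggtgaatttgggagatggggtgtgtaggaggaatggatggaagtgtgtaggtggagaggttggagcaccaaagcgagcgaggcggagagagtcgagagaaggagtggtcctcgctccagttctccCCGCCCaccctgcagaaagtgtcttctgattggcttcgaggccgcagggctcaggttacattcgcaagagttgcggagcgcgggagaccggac
Camk2b: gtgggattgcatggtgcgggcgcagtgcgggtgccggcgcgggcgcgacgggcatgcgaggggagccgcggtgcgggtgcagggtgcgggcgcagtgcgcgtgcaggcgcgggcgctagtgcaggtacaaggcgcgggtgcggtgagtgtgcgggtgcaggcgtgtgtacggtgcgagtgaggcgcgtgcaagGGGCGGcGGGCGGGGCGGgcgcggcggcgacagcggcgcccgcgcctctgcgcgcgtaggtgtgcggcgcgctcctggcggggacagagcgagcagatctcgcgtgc
The Nrgn window held 1 GC box, read on the opposite strand, with its first base at -43 from the start site. The Camk2b window held 3, with first bases at -57, -50 and -45, the last 2 of which share a base. A GC box was present in 35.7% of the 32851 promoter windows of the table. The cAMP response core TGACG (20.8% of windows), the TATA element TATAAA (13.6%) and the heat shock element GAANNTTC (7.86%) were searched on both strands, and their letters were in neither window. The E-box CANNTG (72.3%) was found once in the Nrgn window, at -208. GC content was 59.3% for Nrgn and 77.3% for Camk2b, against a median of 52.7% over all windows. These matches describe letters and are not shown binding sites.

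Nrgn fell at both times. Its probe set, 96273_at, had scaled signals of 49.1, 39.1 and 63.0 in the 3 lactacystin arrays at 24 h, against 197 and 185 in the 2 control arrays. At 48 h the signals were 17.7, 53.0 and 81.3 under lactacystin, against 272 and 168 in controls. Every lactacystin array lay below every control array of either time, a separation that 3.01% of the tested probe sets showed. The means were 50.4 ± 12.0 under lactacystin and 191 ± 8.49 in controls at 24 h, and 50.7 ± 31.9 under lactacystin and 220 ± 73.5 in controls at 48 h (SD, n = 3 and n = 2).

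On the log2 scale Nrgn changed by -1.38 ± 0.28 at 24 h (SE, limma adjusted p = 0.00759) and by -1.60 ± 0.28 at 48 h (adjusted p = 0.00514). Among the 6984 tested probe sets, 25 had a lower value of this change at 24 h and 7 at 48 h. Over both times the change was -1.49 ± 0.20 (adjusted p = 0.000447). Since a pseudocount was added, these sizes understate the change of a signal this low. Both lactacystin means of Nrgn, 50.4 and 50.7, lay under the filter cut of 54.8, so Nrgn entered the test through its control arrays. In a fit with no filter on low probe sets, the limma adjusted p of Nrgn was 0.0212 at 24 h and 0.017 at 48 h. The 2 effects did not pass a test of their difference (-0.21 ± 0.40, 48 h minus 24 h, 95% interval -1.08 to 0.65, adjusted p = 0.825), and neither did lactacystin at 48 h against lactacystin at 24 h (-0.07 ± 0.25, interval -0.61 to 0.48, adjusted p = 0.899).

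**Figure D1:**
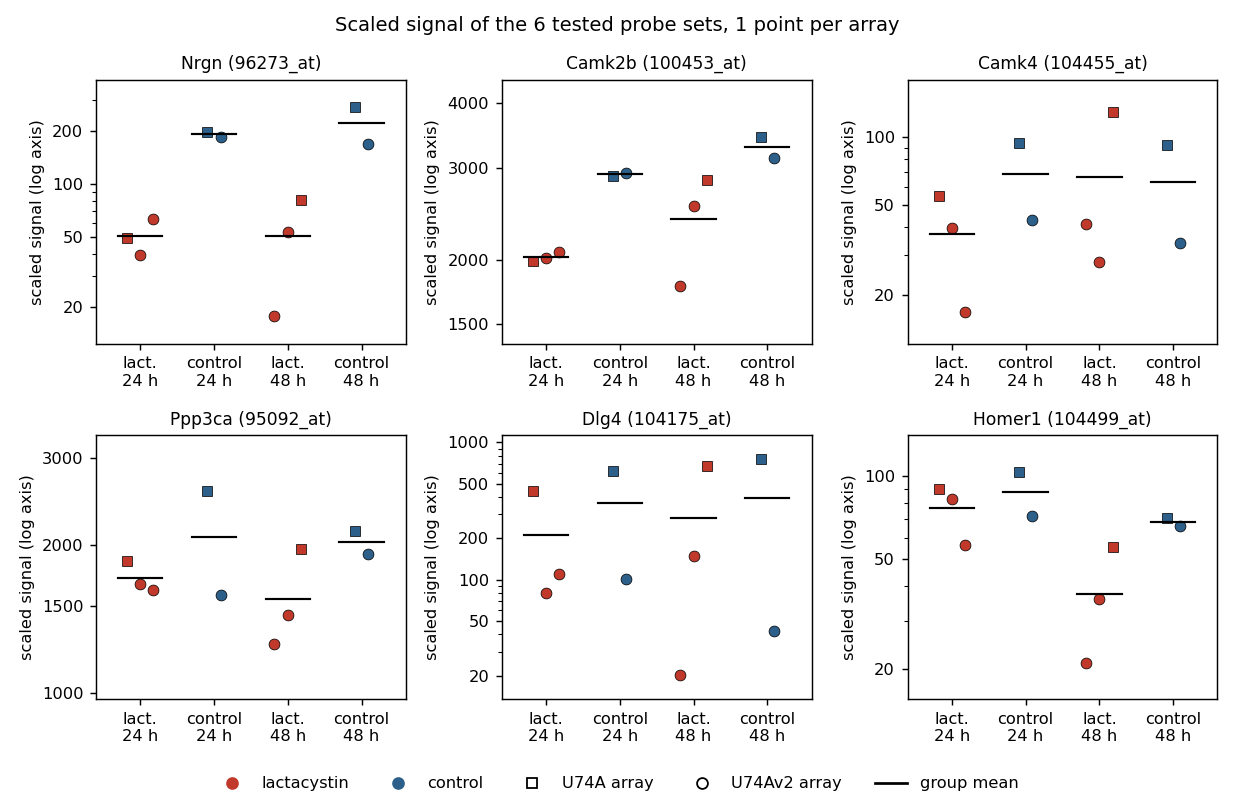
Scaled signal (log axis) of the 6 tested probe sets, 1 point per array, with lactacystin left of its control at each time; squares are U74A arrays, circles U74Av2 arrays and bars group means. All 6 lactacystin arrays lie below all 4 control arrays for Nrgn and Camk2b, as for 3.01% of tested probe sets. For the other 4 genes the groups overlap at 24 h, and the Dlg4 points separate by array design.

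Within single array designs the Nrgn change was -1.49 on U74A and -1.40 on U74Av2 at 24 h, and -1.42 and -1.62 at 48 h, so its size was close to the fitted one in each. A fall at both times within both designs was seen in 16% of tested probe sets. The 24 h call was lost without control replicate 2 of 24 h (adjusted p = 0.144), and the 48 h call without control replicate 1 of 48 h (adjusted p = 0.068). The call over both times was kept in each of the 19 alternative settings in which Nrgn was tested, at adjusted p = 0.000252 to 0.017.

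Signals of several neuronal markers were lower under lactacystin too. In bulk RNA, fewer cells of a type cannot be told apart from less RNA per cell. The summed signal of 8 neuron markers ran from 9543 to 12960 under lactacystin and from 14720 to 19370 in controls at 24 h, and from 11120 to 18290 under lactacystin and from 18280 to 21560 in controls at 48 h. Most of this sum is Stmn2, a tubulin-binding protein of growing neurites with a mean signal of 9810, which changed by -0.74 ± 0.11 at 24 h (adjusted p = 0.00107) and by -0.57 ± 0.11 at 48 h (adjusted p = 0.00681). Of the 8, 2 were called lower at 24 h (Stmn2 and Syt1) and 2 at 48 h (Stmn2 and Snap25), while the neurofilament gene Nefm had 0.41 ± 0.27 and 0.43 ± 0.27, neither called (adjusted p = 0.348 and 0.373). The median change of the 8 was -0.37 at 24 h and -0.40 at 48 h. For the 3 excitatory forebrain markers the sums were 5567 to 6120 under lactacystin and 7220 to 7773 in controls at 24 h, and 4534 to 6068 under lactacystin and 5995 to 6944 in controls at 48 h. Here 1 of 3 was called lower at 24 h and 2 at 48 h. Beside both lists, 6.66% of all tested probe sets were called lower at 24 h and 3.57% at 48 h.

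The other marker lists moved as follows. Of all tested probe sets 6.66% were called lower and 8.2% higher at 24 h, and 3.57% lower and 6.77% higher at 48 h. Of 7 tested markers of inhibitory neurons, 1 was called lower at 24 h and 3 at 48 h, with sums of 6789 to 8715 under lactacystin and 9054 to 11900 in controls at 24 h, and 4736 to 8728 under lactacystin and 8991 to 12080 in controls at 48 h. Of 6 tested markers of astrocytes and radial glia, 1 was called higher and 3 lower at 24 h, and 2 higher at 48 h. The summed signal of the 7 on the arrays ran from 13260 to 21120 under lactacystin and from 16510 to 24650 in controls at 24 h, and from 23840 to 30160 under lactacystin and from 18880 to 26480 in controls at 48 h. For microglia and macrophages 1 of 6 was called higher at 24 h and 3 of 6 at 48 h, with sums of 730.2 to 1407 under lactacystin and 594.1 to 877.9 in controls at 24 h, and 985.7 to 1557 under lactacystin and 510.4 to 1057 in controls at 48 h. For fibroblasts and mural cells 1 of 5 was called higher at 24 h and 2 of 5 at 48 h, with sums over 6 markers of 1120 to 2453 under lactacystin and 1193 to 1240 in controls at 24 h, and 2035 to 3772 under lactacystin and 1144 to 1194 in controls at 48 h. Of 1 tested oligodendrocyte marker and 2 tested endothelial markers, 0 were called at either time. The defining markers Mog, Mag and Mobp of oligodendrocytes, Cdh5 and Tek of endothelium, and Aif1 and Itgam of microglia had mean signals under 32 over all 10 arrays. Of the 10 marker calls at 24 h, 8 were lost without the design covariate, 4 without control replicate 2 and 3 without control replicate 1 of 24 h, and Syt1 was lost without lactacystin replicate 1 or 3 or control replicate 2 of 24 h (adjusted p = 0.0679 to 0.474). Of the 14 at 48 h, 12 were lost without the covariate, 9 without control replicate 2 of 48 h, and 5 each without control replicate 1 and without lactacystin replicate 2 of 48 h. The calls lost without control replicate 2 of 48 h included Stmn2 (a change of -0.40), Snap25 (-0.39), Neurod6 (-0.56) and Neurod2 (-0.70). The Neurod6 and Neurod2 calls were also lost without control replicate 1 of 48 h, with changes of -0.32 and -0.33. In all, leaving out any 1 of 8 arrays ended the 48 h call of Neurod2, any 1 of 7 that of Snap25 and any 1 of 6 that of Neurod6. These included lactacystin arrays and arrays of 24 h. The part of these cells in the results on members was not tested.

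Camk2b encodes the beta subunit of calcium/calmodulin-dependent kinase II, which binds actin in spines as well as carrying kinase activity. Its probe set, 100453_at, gave 1990, 2010 and 2070 under lactacystin at 24 h, against 2900 and 2940 in controls. At 48 h it gave 1780, 2540 and 2850 under lactacystin, against 3440 and 3140 in controls. As for Nrgn, no lactacystin array reached the lowest control array of either time, a separation that 3.01% of tested probe sets showed. For Camk2b the margin was narrow, with 2850 as the highest lactacystin signal and 2900 as the lowest control signal.

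The Camk2b change was -0.50 ± 0.15 at 24 h (adjusted p = 0.0488) and -0.46 ± 0.15 at 48 h, which missed the threshold (adjusted p = 0.0826). Over both times it was -0.48 ± 0.11 (adjusted p = 0.0107), and the effects at the 2 times differed by 0.04 ± 0.22 (48 h minus 24 h, interval -0.43 to 0.51, adjusted p = 0.949). Within U74A and within U74Av2 the values were -0.54 and -0.52 at 24 h, and -0.27 and -0.56 at 48 h. The 24 h call lay close to the threshold and was lost without any of 7 arrays (adjusted p = 0.0712 to 0.371), namely each lactacystin and each control array of 24 h and each control array of 48 h. The call over both times was lost without control replicate 2 of 24 h (adjusted p = 0.0552). At 48 h Camk2b passed the threshold without lactacystin replicate 3 of 48 h (adjusted p = 0.0378).

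Together 2 of the 6 tested members were called lower at 24 h, where 6.66% of all tested probe sets were lower, and 1 of 6 at 48 h, where 3.57% were. The members were chosen with earlier results of these data known, so these counts are no independent test of them. By limma 0 members were called higher at either time, beside 8.2% of all tested at 24 h and 6.77% at 48 h, and 0 had a positive change at an unadjusted p under 0.05, beside 14.7% and 15.1% of all tested. At that unadjusted level 2 of 6 were lower at 24 h and 4 of 6 at 48 h, beside 14.7% and 9.72% of all tested. Over both times 2 of 6 were called lower, beside 7.52% of all tested. The median change of the 6 was -0.28 at 24 h and -0.40 at 48 h, beside -0.03 and 0.04 over all tested probe sets. The difference between the effects at 48 h and 24 h was called for 0 of 6 (0 also at an unadjusted p under 0.05), beside 1.23% of all tested (16.2% unadjusted), and lactacystin at 48 h against 24 h for 0 of 6 (1 at the unadjusted level, Homer1), beside 11.6% of all tested (26.7% unadjusted).

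The scaling of the arrays bears on the 48 h values. With arrays set to a common median, the median over all tested probe sets at 48 h was -0.11 in place of 0.04, and the called probe sets split into 285 higher and 634 lower in place of 473 higher and 249 lower. Relative to those medians, the 48 h change of Nrgn was -1.60 under the common median and -1.64 under the scaling used here, and that of Camk2b was -0.52 and -0.50. With quantile normalization they were -1.75 for Nrgn and -0.37 for Camk2b, which was not called (limma adjusted p = 0.143).

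**Figure D2:**
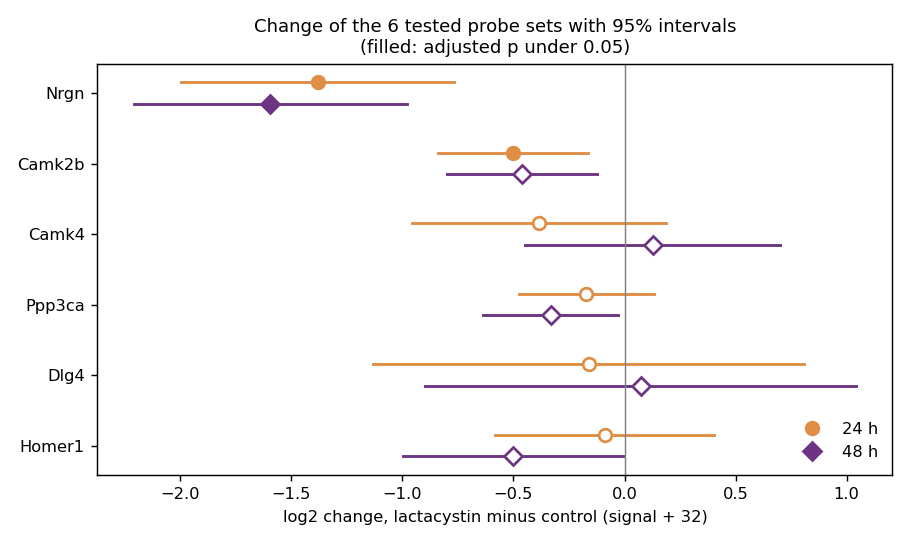
Change of the 6 tested probe sets (log2 of signal + 32, lactacystin minus control) at 24 h (circles) and 48 h (diamonds), with 95% intervals from the limma fit; filled symbols have an adjusted p under 0.05. Both Nrgn values and the 24 h value of Camk2b are filled, and the Dlg4 intervals are the widest of the 6, from -1.13 to 0.81 at 24 h.

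Ppp3ca encodes the alpha catalytic subunit of calcineurin, the phosphatase that calcium and calmodulin activate. Its probe set, 95092_at, had signals of 1850, 1660 and 1620 under lactacystin at 24 h, against 2570 and 1580 in controls. At 48 h they were 1260, 1440 and 1960 under lactacystin, against 2130 and 1910 in controls. The groups overlapped at both times, and the change was -0.17 ± 0.14 at 24 h (interval -0.48 to 0.13, adjusted p = 0.444) and -0.33 ± 0.14 at 48 h (interval -0.64 to -0.03, adjusted p = 0.161). At 24 h the designs differed in sign, with -0.47 on U74A and 0.06 on U74Av2. With the arrays set to a common median Ppp3ca passed the threshold at 48 h (-0.50, adjusted p = 0.0451), or -0.39 relative to the median of all tested probe sets. With quantile normalization it did not (-0.25, adjusted p = 0.331), or -0.22 relative to that median.

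Camk4 encodes a calmodulin-dependent kinase of the nucleus, which phosphorylates the transcription factor CREB. Its probe set, 104455_at, had signals of 55.0, 39.7 and 16.8 under lactacystin at 24 h, against 94.2 and 43.0 in controls. At 48 h they were 41.2, 28.0 and 130 under lactacystin, against 92.7 and 33.9 in controls. The highest array of each group was the U74A one, and on no U74Av2 array did the signal exceed 43.0. The change was -0.38 ± 0.26 at 24 h (interval -0.96 to 0.19, adjusted p = 0.36) and 0.13 ± 0.26 at 48 h (interval -0.45 to 0.70, adjusted p = 0.827), and the effects at the 2 times did not pass the test of their difference (0.51 ± 0.37, adjusted p = 0.534).

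Dlg4 encodes PSD-95, the main scaffold of excitatory synapses, which anchors glutamate receptors. The signals of its probe set, 104175_at, were 439, 80.2 and 111 under lactacystin at 24 h, against 622 and 101 in controls. At 48 h they were 20.3, 150 and 671 under lactacystin, against 750 and 42.3 in controls. The U74A arrays ran from 439 to 750 and the U74Av2 arrays from 20.3 to 150, with no overlap. This gap of 2.47 between the designs' median log2 signals lay at percentile 99.5 of the gaps of all tested probe sets, whose median was 0.26. Within the fit, Dlg4 changed by -0.16 ± 0.44 at 24 h (adjusted p = 0.847) and by 0.07 ± 0.44 at 48 h (interval -0.90 to 1.04, adjusted p = 0.95). The 24 h interval ran from -1.13 to 0.81, and the Camk2b changes lie inside both intervals, so a change of that size was not detectable for Dlg4.

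Homer1 encodes a scaffold that links group I metabotropic glutamate receptors to calcium release channels and to Shank. For probe set 104499_at the signals were 90.3, 82.9 and 56.5 under lactacystin at 24 h, against 104 and 71.7 in controls. At 48 h they were 21.1, 35.9 and 55.5 under lactacystin, against 70.6 and 65.9 in controls. The groups overlapped at 24 h, while at 48 h the 3 lactacystin arrays lay below both controls, as 9.87% of tested probe sets did. The change was -0.09 ± 0.23 at 24 h (adjusted p = 0.832) and -0.50 ± 0.23 at 48 h (interval -0.997 to -0.0077, adjusted p = 0.194). Lactacystin at 48 h against lactacystin at 24 h gave -0.66 ± 0.20, which missed the threshold (adjusted p = 0.0554), and the effects at the 2 times differed by -0.41 ± 0.32 (48 h minus 24 h, adjusted p = 0.566). Over 19 alternatives the adjusted p of the first value ran from 0.0304 to 0.269, and it passed in 3, with common-median scaling (-0.71, adjusted p = 0.0437), with quantile normalization (-0.78, adjusted p = 0.0371) and without a variance trend (adjusted p = 0.0304).

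**Figure D3:**
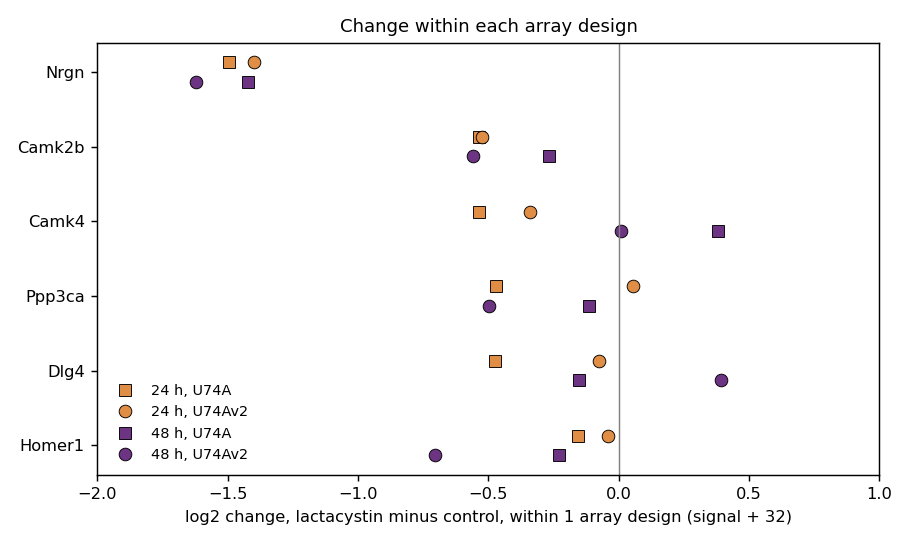
Change of the 6 tested probe sets within 1 array design (log2 of signal + 32, lactacystin minus control) at 24 h and 48 h; squares are U74A (1 array against 1) and circles U74Av2 (the mean of 2 lactacystin arrays against 1 control). The 4 Nrgn points lie between -1.62 and -1.40 and the 4 Camk2b points between -0.56 and -0.27, while Ppp3ca, Camk4 and Dlg4 have points on both sides of 0.

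The remaining members were too dim or could not be given to 1 gene. Camk2a encodes the alpha subunit of calcium/calmodulin-dependent kinase II, abundant in the mature forebrain. Its probe set 93659_at ran from 1.28 to 6.08 under lactacystin and from 1.47 to 9.11 in controls, and 93660_at from 5.48 to 19.3 under lactacystin and from 9.23 to 26.9 in controls. The second Homer1 probe set, 104498_at, ran from 5.86 to 31.3 under lactacystin and from 2.10 to 26.1 in controls. All 10 arrays were under the pseudocount of 32 for each of these 3 probe sets, so a change in Camk2a was not measurable here.

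Pcp4 encodes a small protein that, like neurogranin, binds calmodulin through an IQ motif. It was measured on U74Av2 only, where 162300_at gave 4.32 and 9.45 under lactacystin and 3.11 in the control at 24 h, and 36.9 and 9.14 under lactacystin and 11.7 in the control at 48 h. Probe set 160899_at is annotated to Igsf5 and Pcp4 together, so its signal cannot be assigned to Pcp4. It gave 530 and 483 under lactacystin and 844 in the control at 24 h, and 841 and 605 under lactacystin and 976 in the control at 48 h. Each lactacystin array was below the 1 control array of its time, and the share of all probe sets with this order was not computed. The change over both times was -0.57 ± 0.16 in a fit of the 6 U74Av2 arrays, where 6.8% of 8696 probe sets were called, and it missed the threshold (adjusted p = 0.0746), though it passed without lactacystin replicate 1 of 48 h (-0.68, adjusted p = 0.0465).

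**Figure D4:**
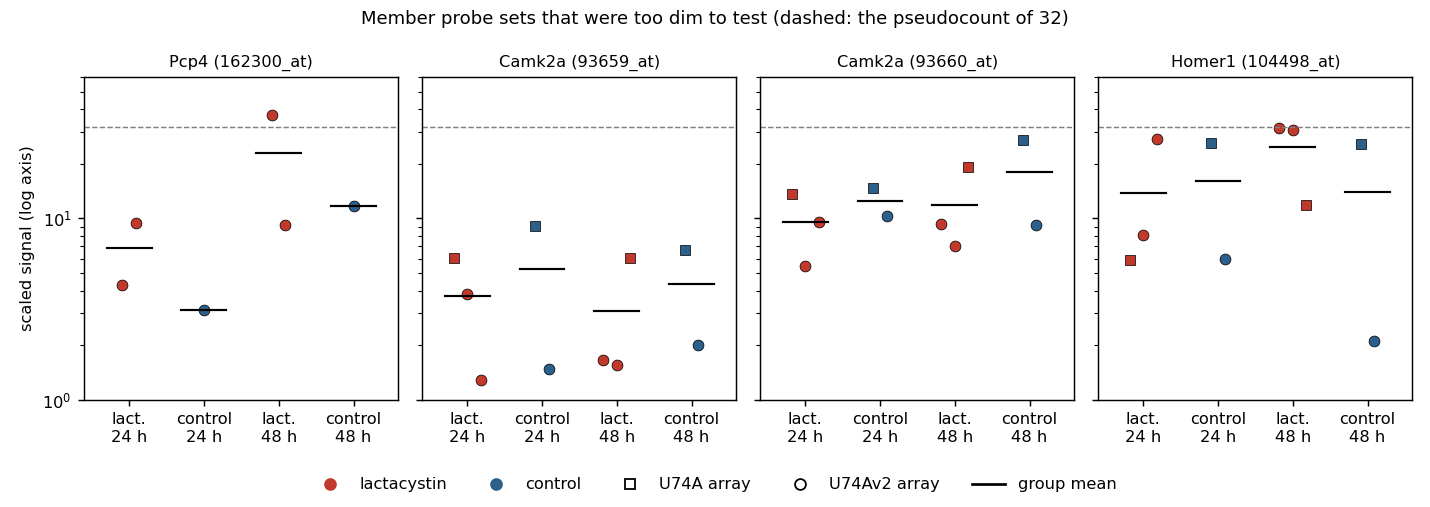
Scaled signal (log axis) of the 4 member probe sets too dim to test, 1 point per array, with lactacystin left of its control; squares are U74A arrays, circles U74Av2 arrays, bars group means and the dashed line the pseudocount of 32. For Camk2a and Homer1 every point lies under the line, and for Pcp4, measured on U74Av2 alone, 1 lactacystin array at 48 h lies above it, at 36.9.

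The genes whose pattern was most like that of Nrgn were ranked by the correlation of log2 signals over the 10 arrays after the difference between designs was removed. The 5 probe sets at the top were of 4 genes. Scd1, which makes monounsaturated fatty acids, had r = 0.98 and r = 0.96 for its 2 probe sets, and changed by -2.45 ± 0.30 and -3.33 ± 0.23 at 24 h, and by -2.64 ± 0.30 and -3.54 ± 0.23 at 48 h. Mapt, the microtubule protein tau, had r = 0.97 and changed by -0.72 ± 0.12 at 24 h and by -0.62 ± 0.12 at 48 h. Stx1a, a syntaxin of synaptic vesicle release, had r = 0.96 and changed by -0.90 ± 0.19 at 24 h and by -0.89 ± 0.19 at 48 h. Sult4a1, a brain sulfotransferase, had r = 0.97 and values of -0.72 ± 0.18 at 24 h and -0.57 ± 0.18 at 48 h. Among the members r with Nrgn was 0.91 for Camk2b, 0.71 for Ppp3ca, 0.45 for Homer1, 0.33 for Dlg4 and 0.20 for Camk4. Without removing the difference between designs, r was 0.98 and 0.96 for Scd1, 0.89 for Stx1a, 0.67 for Sult4a1 and 0.62 for Mapt. These coefficients describe arrays that share treatment, time and scaling, and since the 4 genes were chosen for this likeness, their changes are given without a test.

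Around the members, 7 lists of other genes of the same signalling held 45 tested genes, with the brightest probe set standing for its gene. The lists were chosen with earlier results of these data known, so their counts beside the shares of all tested are no independent test. Counts for the 45 genes are as follows. Of the 45, 12 were called lower and 0 higher at 24 h, and 8 lower and 1 higher at 48 h, beside 6.66% of all tested probe sets lower and 8.2% higher at 24 h, and 3.57% lower and 6.77% higher at 48 h. At an unadjusted p under 0.05 the counts were 19 lower and 2 higher at 24 h, beside 14.7% of all tested in each direction, and 14 lower and 2 higher at 48 h, beside 9.72% lower and 15.1% higher. The median change over the 45 was -0.33 at 24 h and -0.17 at 48 h, beside -0.03 and 0.04 over all tested probe sets. With arrays set to a common median the 48 h counts were 14 lower and 0 higher, with a median of -0.31 beside -0.11 over all tested. With quantile normalization they were 8 lower and 0 higher, with a median of -0.20 beside -0.02. Without the design covariate 2 were called lower at 24 h and 0 at 48 h, and on the U74Av2 arrays alone 7 and 6 were. The 24 h count of lower calls was 5 to 15 when single arrays were left out, with 7 without lactacystin replicate 1, 6 without control replicate 1 and 5 without control replicate 2 of 24 h. At 48 h it was 0 to 10, with 0 without control replicate 2, 3 without control replicate 1, 4 without lactacystin replicate 1 and 5 without lactacystin replicate 2 of 48 h, and 5 without lactacystin replicate 3 of 24 h.

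**Figure D5:**
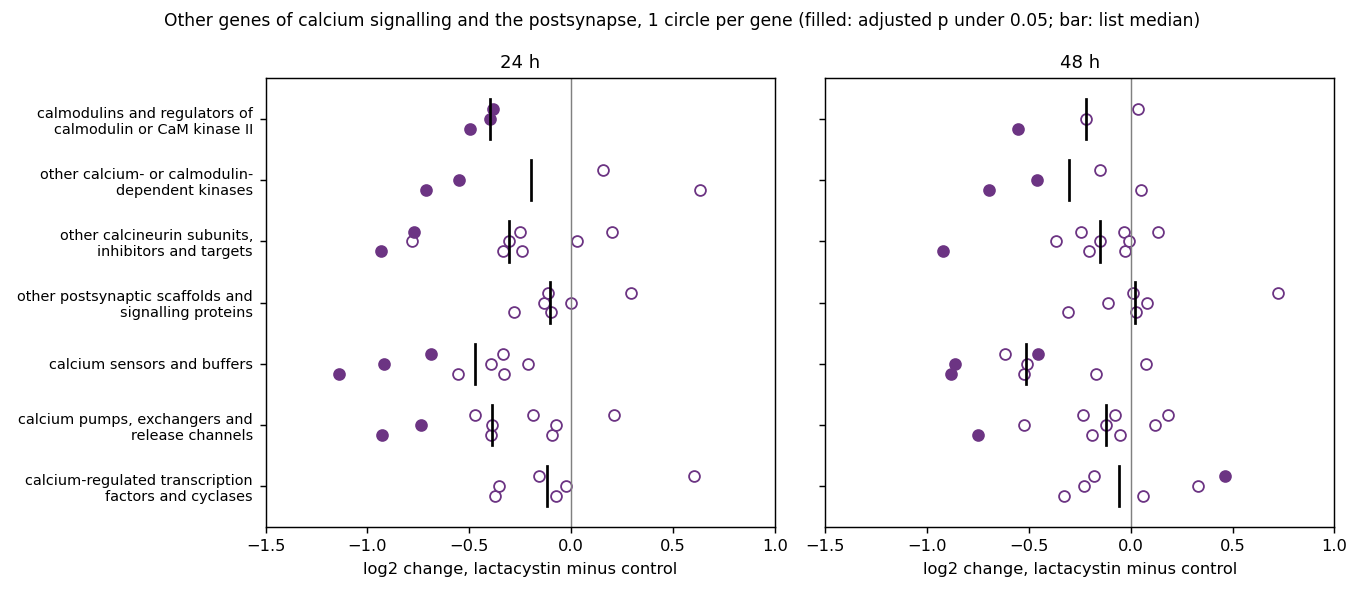
Change of 45 other genes of calcium signalling and the postsynapse (log2 of signal + 32, lactacystin minus control) at 24 h and 48 h, 1 circle per gene, filled where the adjusted p is under 0.05, with a bar at each list's median. The filled circles lie left of 0 except for 1 at 48 h, Pde1b. The list of postsynaptic scaffolds, with 6 genes, has none, beside 14.9% of all tested probe sets called at 24 h and 10.3% at 48 h.

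Among calmodulins and proteins that bind calmodulin or regulate CaM kinase II, 3 of 9 genes were tested, and all 3 fell at 24 h and 1 at 48 h (list medians -0.40 and -0.22). Over all tested probe sets 6.66% were called lower at 24 h and 3.57% at 48 h, with medians of -0.03 and 0.04. Gap43, a protein of growth cones that shares the calmodulin-binding IQ motif of neurogranin, changed by -0.38 ± 0.09 at 24 h (adjusted p = 0.0169) and by -0.56 ± 0.09 at 48 h (adjusted p = 0.00345). Marcks and Marcksl1, membrane proteins that bind actin and calmodulin, changed by -0.50 ± 0.10 (adjusted p = 0.00568) and by -0.40 ± 0.10 (adjusted p = 0.0171) at 24 h. The Marcks value at 48 h was 0.03 ± 0.10 (adjusted p = 0.877), and its effects at the 2 times did not pass the test of their difference (adjusted p = 0.0841). At 24 h Gap43 lost its call without lactacystin replicate 2 or 3 or either control of 24 h (adjusted p = 0.0574 to 0.115), Marcksl1 without lactacystin replicate 1 or 2 or either control (adjusted p = 0.0523 to 0.107) and Marcks without control replicate 1 (adjusted p = 0.0632). At 48 h Gap43 lost it without control replicate 2 of 48 h (adjusted p = 0.0888).

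Among 4 tested kinases other than the members, from a list of calmodulin-dependent kinases and protein kinase C forms, 2 of protein kinase C fell at both times (list medians -0.20 and -0.30). The shares called lower over all tested probe sets were 6.66% at 24 h and 3.57% at 48 h, with medians of -0.03 and 0.04. Prkce changed by -0.72 ± 0.12 at 24 h (adjusted p = 0.00243) and by -0.46 ± 0.12 at 48 h (adjusted p = 0.0328), and Prkcb by -0.55 ± 0.13 (adjusted p = 0.0129) and by -0.70 ± 0.13 (adjusted p = 0.00573). Prkce is a calcium-independent form, activated by diacylglycerol, and Prkcb a calcium-dependent one. A second probe set of Prkce had -0.84 at 24 h (adjusted p = 0.032) and -0.80 at 48 h (adjusted p = 0.0482), while a second one of Prkcb was not called, with -0.56 (adjusted p = 0.0587) and -0.36 (adjusted p = 0.253). The Prkce call at 24 h was kept without any single array. Its 48 h call was lost without any array of 48 h and without lactacystin replicate 2 or 3 of 24 h (adjusted p = 0.0563 to 0.332). The Prkcb call was lost at 24 h without lactacystin replicate 1 or control replicate 1 of 24 h (adjusted p = 0.0517 and 0.127), and at 48 h without control replicate 2 of 48 h (adjusted p = 0.0958).

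Of 9 tested subunits, inhibitors and targets of calcineurin, 2 fell at 24 h and 1 at 48 h (list medians -0.31 and -0.15). Beside them, 6.66% of all tested probe sets were called lower at 24 h and 3.57% at 48 h (medians -0.03 and 0.04). Mef2c, a transcription factor that calcineurin activates, changed by -0.93 ± 0.22 at 24 h (adjusted p = 0.0138) and by -0.92 ± 0.22 at 48 h (adjusted p = 0.0202). Its 3 other tested probe sets were also negative at both times, from -1.22 to -1.02 at 24 h and from -0.89 to -0.42 at 48 h. Ppp3cb, the beta catalytic subunit, changed by -0.77 ± 0.18 at 24 h (adjusted p = 0.0158) and stood at -0.37 ± 0.18 at 48 h (adjusted p = 0.238). The Mef2c calls were lost without lactacystin replicate 1 or control replicate 2 at 24 h (adjusted p = 0.0532 and 0.294) and without either control at 48 h (adjusted p = 0.0962 and 0.213). The Ppp3cb call was lost without lactacystin replicate 1 or either control of 24 h (adjusted p = 0.0538 to 0.206).

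Among 8 tested calcium sensors and buffers, 3 fell at 24 h and 3 at 48 h (list medians -0.47 and -0.52). For all tested probe sets the shares called lower were 6.66% and 3.57%, and the medians -0.03 and 0.04. Vsnl1, a neuronal calcium sensor, changed by -0.92 ± 0.16 at 24 h (adjusted p = 0.00256) and by -0.88 ± 0.16 at 48 h (adjusted p = 0.00489). Calb2, the buffer calretinin, changed by -1.14 ± 0.15 at 24 h (adjusted p = 7e-04) and stood at -0.52 ± 0.15 at 48 h (adjusted p = 0.0526), and Hpca, the sensor hippocalcin, changed by -0.69 ± 0.20 at 24 h (adjusted p = 0.0407). At 48 h Calb1, the buffer calbindin, changed by -0.86 ± 0.25 (adjusted p = 0.0481), and Hpcal1, chosen after its values were seen, by -0.46 ± 0.11 (adjusted p = 0.0201). Vsnl1 lost its calls without control replicate 2 of the same time (adjusted p = 0.0761 at 24 h and 0.0858 at 48 h), and Hpcal1 without lactacystin replicate 1 or either control of 48 h (adjusted p = 0.0593 to 0.149). Hpca lost its call without any of 7 arrays (adjusted p = 0.0545 to 0.482), all but control replicate 1 of 24 h and lactacystin replicates 2 and 3 of 48 h. Calb1 lost its call without any array but lactacystin replicate 3 of 48 h (adjusted p = 0.0591 to 0.309).

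Of 9 tested pumps, exchangers and release channels, 2 fell at 24 h and 1 at 48 h (list medians -0.39 and -0.12). Called lower over all tested probe sets were 6.66% at 24 h and 3.57% at 48 h, with medians of -0.03 and 0.04. Slc8a1, the sodium/calcium exchanger that extrudes calcium, changed by -0.93 ± 0.13 at 24 h (adjusted p = 0.00107), and Ryr3, a release channel, by -0.74 ± 0.23 (adjusted p = 0.0492). Atp2a2, the pump that refills the endoplasmic reticulum, changed by -0.75 ± 0.21 at 48 h (adjusted p = 0.0439). A second probe set of Ryr3 was not called at 24 h (-0.59, adjusted p = 0.069). The Slc8a1 call was kept without any single array and was lost without the design covariate (adjusted p = 0.0547). Ryr3 lost its call without any of 7 arrays (adjusted p = 0.0628 to 0.272), all but lactacystin replicate 2 of 24 h and lactacystin replicates 2 and 3 of 48 h. Atp2a2 lost its call without any of 7 arrays (adjusted p = 0.0584 to 0.306), all but lactacystin replicates 1 and 2 of 24 h and lactacystin replicate 3 of 48 h.

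Of 6 tested scaffolds and signalling proteins of the postsynapse, 0 passed the limma test at either time (list medians -0.11 and 0.02). Beside them, 14.9% of all tested probe sets passed at 24 h and 10.3% at 48 h. With 6 genes, 0 calls does not set this list apart from those shares. At an unadjusted p under 0.05 the counts were 0 at 24 h and 2 at 48 h, beside 29.4% and 24.8% of all tested. Those 2 had changes at 48 h of 0.72 ± 0.22 for the actin-binding protein Synpo (adjusted p = 0.0592) and -0.31 ± 0.12 for gephyrin, Gphn (adjusted p = 0.126). Only 6 of the 24 genes of this list were tested, so most scaffolds are not covered. Of 6 tested calcium-regulated transcription factors, cyclases and phosphodiesterases, 1 rose at 48 h (list medians -0.12 and -0.06). At 48 h 6.77% of all tested probe sets were called higher. The 1 gene was Pde1b, a phosphodiesterase activated by calmodulin, with 0.46 ± 0.13 at 48 h (adjusted p = 0.0497) and -0.35 ± 0.13 at 24 h (adjusted p = 0.103). The Pde1b call was lost without any of 7 arrays (adjusted p = 0.058 to 0.291), namely each array of 48 h and lactacystin replicates 2 and 3 of 24 h, and with arrays set to a common median (0.30, adjusted p = 0.181).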

How the data were processed

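RNA of 10 samples, 6 with lactacystin and 4 controls, was hybridised to 1 array each. The deposited values are intensities, 1 linear summary signal per probe set, made with MAS5 per the submitters' processing notes; its version is not given in the sources used here. The designs, U74A and U74Av2, are separate deposited tables of 10043 and 12488 probe sets. A batch or date that went with a design cannot be told apart from it.

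Without the 66 control probe sets, arrays were brought to the same 2% trimmed mean, 500, over the 9977 probe sets that both designs hold; 32 was added as a pseudocount and log2 taken. Between 19.9% and 27.8% of an array's values lay under the pseudocount. Probe sets in the lowest 30% by mean signal, below 54.8, were not tested. Of the shared probe sets 8724 carried 1 symbol and 346 several, and no probe set with several was given to a gene. Probe sets whose name ends in _s_at or _f_at can bind several transcripts.

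Tests used limma 3.58.1 in R 4.3.3, with 4 groups and array design fitted on all arrays (5 residual degrees of freedom; 6 for both times together, with time and design as covariates; 3 for the U74Av2 arrays alone). They were two-sided, with Benjamini-Hochberg adjustment over the 6984 tested probe sets and a threshold of 0.05, and were tested on simulated data. Adjusted p-values all come from limma. Members and lists were chosen with earlier results of these data known. Of each pathway list, up to 4 genes past the threshold at either time with the largest change were named, or 2 with the smallest p where none passed, and the 5 probe sets most correlated with Nrgn. Alternatives covered pseudocount, scaling, filter, design covariate, U74Av2 arrays alone, replicate block, variance trend, 1 time alone and each array left out. Promoter letters come from a RefSeq table, in which 5 of 9 members matched.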

Additional observations from a re-analysis of the deposited data

Results flagged for a closer look

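For Gfap, the intermediate filament of astrocytes, the change under lactacystin differed between the times by 2.04 log2 (48 h minus 24 h, limma adjusted p = 0.00186), with -0.64 at 24 h and 1.40 at 48 h. For Aqp4, the astrocyte water channel, it differed by 2.38 log2 (adjusted p = 0.00186), with -1.89 at 24 h and 0.49 at 48 h. The 48 h value of Aqp4 was not called (adjusted p = 0.111). A second Gfap probe set had -1.09 at 24 h (adjusted p = 0.0201) and 0.77 at 48 h (adjusted p = 0.0976). A second Aqp4 probe set had -1.38 at 24 h (adjusted p = 0.00469) and 0.345 at 48 h (adjusted p = 0.463). Gfap and Aqp4 are markers set beside the members, and their part in the changes of Nrgn and Camk2b was not tested.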

How the results depend on the processing

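The direction of the Nrgn change was negative at 24 h, at 48 h and over both times in each alternative in which it was tested; leaving out the lower 50% of probe sets removed it, with Camk4 and Homer1, from the test. Apart from single arrays left out, its calls were lost without the design covariate (adjusted p = 0.0547 at 24 h and 0.0503 at 48 h) and on the U74Av2 arrays alone (adjusted p = 0.0749 and 0.0634). Camk2b was negative in each alternative too, and its 24 h call was lost in 12 of 21 (adjusted p = 0.00657 to 0.371 over all 21). Its call over both times was lost on the U74Av2 arrays alone (adjusted p = 0.0599), and it was called at 48 h with common-median scaling (adjusted p = 0.0214). Lactacystin at 48 h against 24 h was called for Camk2b without lactacystin replicate 1 of 48 h (0.40, adjusted p = 0.0423).

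Counts of called probe sets moved most without the design covariate, to 248 at 24 h, 110 at 48 h, 2 for the difference between times, 493 over both times and 138 for lactacystin at 48 h against 24 h. On the U74Av2 arrays alone they were 558 at 24 h, 388 at 48 h, 12 for the difference and 524 over both times. The 48 h arrays alone gave 440. The difference between times gave 168 with common-median scaling, 48 with no filter and 36 without a variance trend. The U74Av2 table gave 359 with no filter and 280 without a trend. With single arrays left out the counts ran from 308 to 1107 at 24 h, from 209 to 826 at 48 h, from 5 to 186 for the difference, from 759 to 1151 over both times, from 329 to 831 for lactacystin at 48 h against 24 h and from 212 to 660 in the U74Av2 table.

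Values near 0 that passed no threshold changed sign. At 24 h Ppp3ca was 0.056 on U74Av2 alone. At 48 h Dlg4 was -0.043 with common-median scaling, -0.078 with quantile normalization and -0.36 without the covariate, and Camk4 was -0.025 with quantile normalization and -0.021 without the covariate. Over both times Dlg4 was 0.16 on U74Av2 alone, and for lactacystin at 48 h against 24 h it was 0.020 with a pseudocount of 64. The Camk2b difference between times was -0.15 with common-median scaling and -0.035 on U74Av2 alone. With single arrays left out Dlg4 ran from -0.36 to 0.20 at 24 h, from -0.49 to 0.57 at 48 h, from -0.29 to 0.77 for the difference, from -0.30 to 0.15 over both times and from -0.49 to 0.47 for lactacystin at 48 h against 24 h. Likewise Ppp3ca ran from -0.39 to 0.014 at 24 h and from -0.36 to 0.039 for the difference, Camk4 from -0.090 to 0.27 at 48 h, Camk2b from -0.092 to 0.23 for the difference, and Nrgn from -0.42 to 0.072 for the difference and from -0.27 to 0.22 for lactacystin at 48 h against 24 h. The cause of these moves was not tested.

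The labels share replicate numbers between groups, and 9 of 13 pairs of same-numbered arrays had deviations that correlated above 0.1. These 9 pairs were on 1 design (r from 0.237 to 0.678), and the 4 pairs across designs had r from -0.623 to -0.555. The numbers were therefore not taken to pair the arrays. Number and design coincide only in part, since lactacystin replicate 1 of 48 h was on U74Av2 and the other replicate 1 arrays on U74A. With the replicate number as a block, 780 probe sets were called at 24 h, 536 at 48 h, 60 for the difference, 747 over both times and 565 for lactacystin at 48 h against 24 h. Nrgn had adjusted p = 0.00395 at 24 h and 0.00257 at 48 h in that fit, and Camk2b had adjusted p = 0.0279 and 0.0495. The block ended the calls of Gap43 at 24 h (adjusted p = 0.0723) and of Prkce (0.0788), Hpcal1 (0.0525) and Pde1b (0.0962) at 48 h, and among markers those of Apoe at 24 h (0.0563) and of Snap25 (0.0663), Neurod6 (0.0512), Neurod2 (0.0836), Tyrobp (0.0594) and Ctss (0.051) at 48 h.

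Of the 12 calls of list genes at 24 h, 10 were lost without the design covariate, 5 on the U74Av2 arrays alone and 4 without a variance trend. Of the 9 at 48 h, 9 were lost without the covariate, 4 without a trend, 4 on the 48 h arrays alone, 3 on U74Av2 alone and 3 with no filter. On U74Av2 alone at 24 h the losses included Ryr3 (adjusted p = 0.216), Marcksl1 (0.135) and Prkcb (0.133).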
